A study of Arabidopsis thaliana with 12 samples.

Results

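Roots of the *pi4kß1ß2* mutant of *Arabidopsis thaliana* were compared with roots of its wild type, Col-0 (WT), across all expressed genes. The members of this comparison were the 6 root libraries of a series of 12, 3 per genotype, and the 19694 genes of 37336 for which 3 or more of the 6 libraries held at least 1 CPM, a count scaled to library size. Both groups were untreated seedlings aged 7 days, grown on agar-solidified MS medium with sucrose under a long-day light cycle, and the labels distinguish them by genotype. The *pi4kß1ß2* line carries T-DNA insertions in *PI4Kß1* and *PI4Kß2*, so that one mutant line, and no complemented line, stood for the loss of both kinases. The genes described were grouped into 22 pathway lists and 24 gene families that are not defined by auxin action. The study examined auxin responses in these plants, together with root growth, cytokinesis, PIN2 traffic, vacuoles and the actin cytoskeleton. Some genes named below also stand in its lists of the most induced and most repressed genes.

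Phosphatidylinositol 4-kinases phosphorylate phosphatidylinositol at the 4-position of its inositol ring, and the product, PI4P, is a charged lipid of the trans-Golgi network, the cell plate and the plasma membrane. PI4Kß1 and PI4Kß2 sit at the trans-Golgi network, where they act with RAB GTPases in secretion, in root hair growth and in the formation of the cell plate that divides a plant cell after mitosis. PI4P is also the substrate from which plants make phosphatidylinositol 4,5-bisphosphate, a lipid that actin regulators, the exocyst and clathrin adaptors bind. A root grows from a meristem at its tip, behind which cells elongate and then differentiate into root hairs, endodermis, xylem and phloem.

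Each library had 39313257 to 46577151 counts that fell on genes. Of the genes tested, 2233 were higher and 3000 were lower in *pi4kß1ß2* roots at an adjusted p-value under 0.05, which is 11.3% and 15.2% of the genes tested (edgeR's quasi-likelihood test, Benjamini-Hochberg adjustment over all genes). A gene past this threshold is here said to be called, to rise or to fall, and fold changes are the log2 of *pi4kß1ß2* over WT, given with their standard error (SE). The median over all tested genes was 0.01. A call is said to be held where it was also made in each of the 6 fits that left out 1 library; 1197 of the higher and 1970 of the lower calls were held. Most changes were modest: 348 genes rose and 482 fell by more than 1 on the log2 scale, or 1.77% and 2.45% of the genes tested. The 6 libraries did not overlap between the genotypes for 44.7% of all tested genes, against which the separations described below are to be read. Counts of members called higher or lower are likewise to be read against 11.3% and 15.2%. Under library-size scaling without trimmed-mean factors, 3122 genes were higher and 2583 lower, so that 54.7% in place of 42.7% of calls were higher. Of the genes named below, *NAC103*, *GA2OX1*, *DIR1*, *CYP712A1*, *MYB87* and AT4G01890 passed the CPM filter through WT libraries alone, and *PAL3*, *BARS1*, *GA2OX4*, *NDB4*, *HSP23.6-MITO*, *CYP71A13*, *BHLH100* and AT3G47480 through *pi4kß1ß2* libraries alone, so that a difference was in part a condition of their being tested. The gene names are those of RefSeq, and the digit after AT in a gene identifier is its chromosome.

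**Figure D1:**
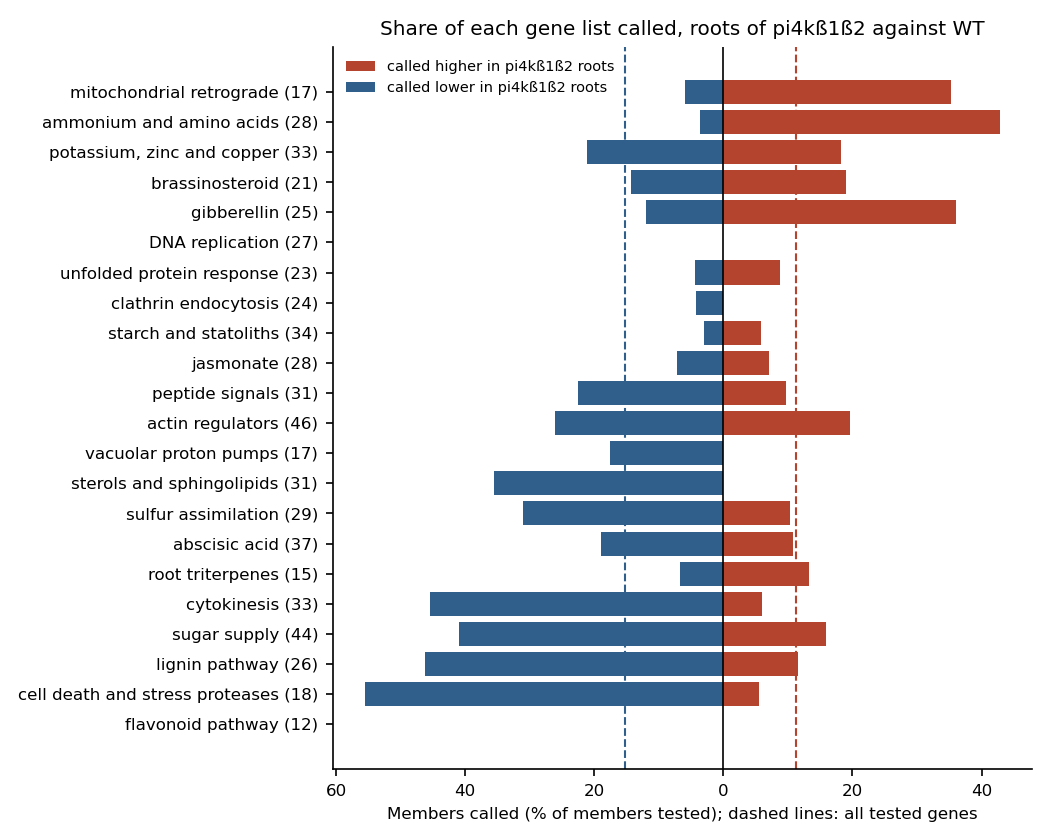
Percent of tested members of each of the 22 pathway lists called higher (right, red) and lower (left, blue) in *pi4kß1ß2* roots, with the number of tested members in parentheses and lists ordered by their median log2 fold change. The dashed lines are the shares over all tested genes, 11.3% and 15.2%. No member of the DNA replication or flavonoid list was called, and the ammonium and amino acid list had the highest share called higher.

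Both targeted kinase genes remained detectable in the mutant. *PI4Kß1* (AT5G64070, chr5:25636882-25644478 of TAIR10.1, minus strand) was at 58.3, 56.8 and 58.3 CPM in *pi4kß1ß2* roots and 88.1, 94.2 and 85.5 CPM in WT roots, a difference of -0.63 (SE 0.05). *PI4Kß2* (AT5G09350, chr5:2899001-2906160, minus strand) was at 8.63, 9 and 7.99 CPM in *pi4kß1ß2* roots and 17.5, 19.3 and 16.8 CPM in WT roots, a difference of -1.07 (SE 0.08). Each mutant library lay below each WT library for both genes. Counts per gene do not show whether the remaining reads come from transcripts that span the insertions.

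The genes next to *PI4Kß1* were also lower in the mutant. *NAC103* (AT5G64060), which encodes a NAC transcription factor of the response to unfolded proteins, lies 1093 bases from *PI4Kß1* on the same strand. It was at 0.943, 0.781 and 0.507 CPM in *pi4kß1ß2* roots and 4.85, 4.15 and 4.30 CPM in WT roots, the lowest fold change of all NAC genes tested (-2.58, SE 0.21, adjusted p = 0.000149). On the other side, *XYP1* (AT5G64080), which encodes an arabinogalactan-type protein of xylem development, lies 731 bases away and fell by 0.49 (SE 0.11, adjusted p = 0.0153). The next genes beyond *XYP1*, AT5G64090 and AT5G64100, fell by 0.21 (SE 0.04) and by 0.62 (SE 0.14). *ERS*, the next gene beyond *NAC103*, was not called (0.04, SE 0.05). *PSAN*, the next tested gene beyond *ERS*, was not called either (-0.76, SE 0.27). None of the 3 tested genes on either side of *PI4Kß2* was called, with differences between -0.20 and 0.14. An effect of an insertion on its neighbours and an effect of losing the kinases cannot be told apart for these genes.

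Of the 10 most abundant root transcripts, 2 fell and 8 were not called. *PYK10* (AT3G09260), which encodes the beta-glucosidase that fills the ER bodies of root cells, averaged 5143 CPM in *pi4kß1ß2* roots and 8394 CPM in WT roots, a difference of -0.71 (SE 0.06, adjusted p = 0.000218). *EXT3* (AT1G21310), which encodes a structural extensin needed for the cell plate in embryos, fell by 0.47 (SE 0.06). The other 8, among them *ATMS1* of methionine synthesis, the chaperone gene *HSC70-1* and the glycolytic genes *GAPC1* and *GAPC2*, had differences between -0.02 and 0.18.

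Marker genes showed that the 6 libraries did not hold the same balance of root cell types, or of transcripts per cell of a type; in bulk RNA the 2 cannot be told apart. Among the root cell types, the marker sums of phloem and xylem had the largest falls, that of phloem in large part through *SUC2*. The 6 xylem markers summed to 204, 206 and 200 CPM in *pi4kß1ß2* roots and 331, 325 and 329 CPM in WT roots, and 5 of the 6 fell: *XCP1* and *XCP2*, which encode proteases of dying tracheary elements, and *CESA4*, *CESA7* and *CESA8*, which encode the cellulose synthase of secondary walls. *VND7*, the switch gene for vessel identity, was not called (-0.40). The 7 endodermis markers summed to 245, 237 and 250 CPM in *pi4kß1ß2* roots, against 320, 308 and 330 CPM in WT roots. Within them the 5 *CASP* genes, whose products build the Casparian strip, fell by 0.48 to 1.25, whereas *SCR*, which specifies the endodermis in the meristem, rose by 0.18 (SE 0.05). The *SCR* call was lost without WT library 1, WT library 2 or *pi4kß1ß2* library 3. *MYB36*, the remaining endodermis marker, was not called (0.11, SE 0.09).

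The phloem markers split. *SUC2*, the sucrose loader of companion cells, and *SEOR1*, a filament protein of mature sieve elements, fell by 1.79 (SE 0.10) and 1.38 (SE 0.11), and *CLE45* fell by 0.97 (SE 0.16). *CALS7* and *NEN4*, which act in the callose pores and in the nuclear breakdown of differentiating sieve elements, rose by 0.49 (SE 0.08) and 1.46 (SE 0.13), and *APL*, the phloem identity gene, was not called (0.00). The sum of the 6 phloem markers was 92.8, 99.6 and 84.4 CPM in *pi4kß1ß2* roots and 161, 167 and 167 CPM in WT roots.

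The sum of the root cap markers ran the other way. The 6 root cap markers summed to 70.7, 71.9 and 74.9 CPM in *pi4kß1ß2* roots and 53.8, 58.2 and 62.7 CPM in WT roots. *SMB*, *BRN1* and *CEL5* rose, and *BFN1*, a nuclease gene of dying cells, fell. *BRN2* (0.46, SE 0.15) and *FEZ* (0.29, SE 0.12) were not called. Root hair markers summed to 277 to 379 CPM in *pi4kß1ß2* roots and 245 to 292 CPM in WT roots and overlapped. Of these 6, *PRP3* was the single one called (0.66, SE 0.17), and not without WT library 1, WT library 2, *pi4kß1ß2* library 1 or *pi4kß1ß2* library 3. The cortex and pericycle lists held 2 markers each, of which 1 each fell. A two-sided exact permutation test of each sum gave p = 0.1, the smallest value that 3 against 3 libraries allow, for root cap, cortex, endodermis, xylem, phloem and pericycle, and p = 0.2 for root hair cells and leaf tissue. The 12 photosynthesis genes taken as markers of leaf tissue summed to 150 to 297 CPM in *pi4kß1ß2* roots and 256 to 531 CPM in WT roots, with none at 0 in any library. Of these 12, *GAPA1* and *PSBO1* fell, and the sum averaged 212 ± 75.7 CPM in *pi4kß1ß2* roots and 376 ± 141 CPM in WT roots (SD, n = 3), with overlapping libraries.

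**Figure D2:**
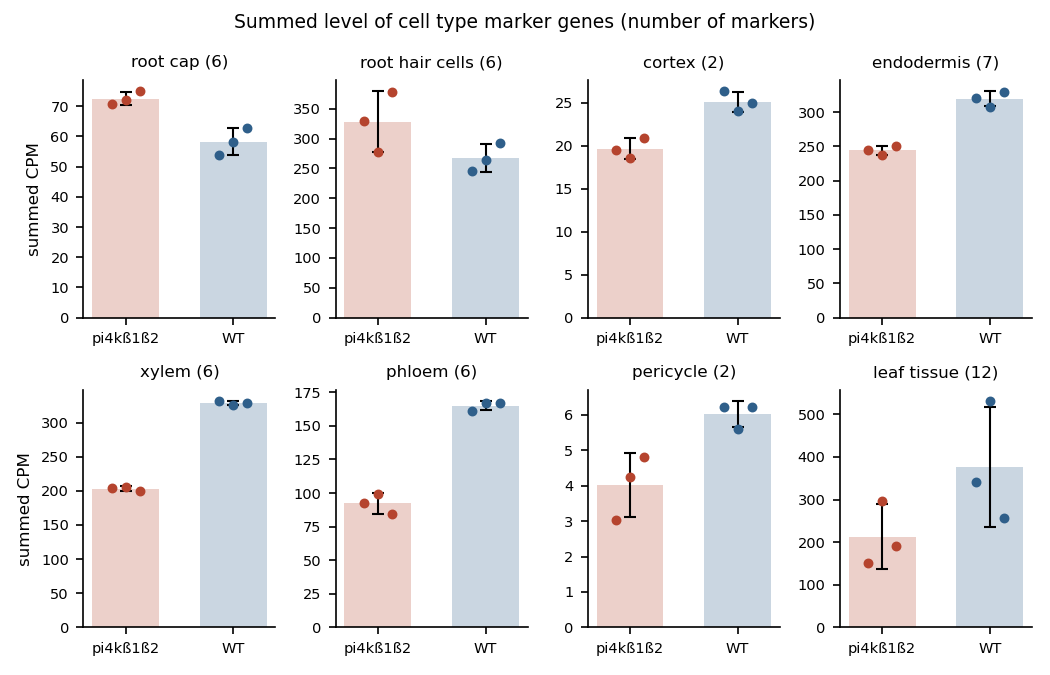
Summed TMM-normalised CPM of the marker genes of 8 cell types or tissues, with the number of markers in parentheses. Points are the 3 libraries per genotype, bars their mean and error bars the SD. Xylem, phloem and endodermis sums were lower in every *pi4kß1ß2* library than in any WT library, root cap sums were higher, and root hair and leaf tissue sums overlapped.

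Cytokinesis genes were among the lists with most members lower in the mutant. Of 33 tested, 15 fell (11 held) and 2 rose, with a median of -0.18. *MPK13* (AT1G07880), which encodes a MAP kinase of the pathway that expands the phragmoplast, the microtubule scaffold of the cell plate, was at 10.8, 12.2 and 10.2 CPM in *pi4kß1ß2* roots and 20.2, 18.3 and 19.9 CPM in WT roots (-0.81, SE 0.08, adjusted p = 0.000363). *MAP65-4* (AT3G60840), whose product bundles microtubules, was at 16.9, 18.4 and 17.6 CPM in *pi4kß1ß2* roots and 30.4, 28.9 and 29.8 CPM in WT roots (-0.75, SE 0.05). *PATL1* (AT1G72150), which encodes a phosphoinositide-binding protein that gathers at the cell plate, was at 207, 206 and 197 CPM in *pi4kß1ß2* roots and 325, 349 and 340 CPM in WT roots (-0.73, SE 0.04, adjusted p = 4.83e-05). The genotypes did not overlap for any of these 3 genes.

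The remaining changes among cytokinesis genes were smaller. Of 10 genes for membrane fusion and shaping at the cell plate, 5 fell, including *KN* (AT1G08560), the syntaxin of the cell plate (-0.25, SE 0.04), *SYP71* (-0.19, SE 0.04), the dynamin gene *DRP1E* (-0.24, SE 0.04) and *KOR1*, which encodes an endoglucanase of the forming wall (-0.29, SE 0.04). *MAP65-3* (AT5G51600), needed for the phragmoplast midzone, fell by 0.31 (SE 0.05), and *AIR9*, for a protein that marks the division site, fell by 0.33 (SE 0.05). The MYB3R factors, which set the mitotic transcription of such genes, did not move together: *MYB3R4* fell by 0.25 (SE 0.05). *MYB3R1* (0.17, SE 0.04) and *MAP65-2* (0.15, SE 0.04) were the 2 genes called higher, and neither call was made without WT library 1, without WT library 3 or without any 1 of the 3 *pi4kß1ß2* libraries. With the library-size scaling 11 members fell.

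Genes of mitosis and cytokinesis in plants share a promoter element, the mitosis-specific activator, whose core AACGG is bound by MYB3R factors. In the 250 bases before the annotated start of each gene (RefSeq, TAIR10.1), at least 1 AACGG on either strand was found for 8 of the 15 cytokinesis genes that fell, for 15 of all 33 in the list, and for 22% of the 19678 tested genes with such a window. The other 7 cytokinesis genes with the element were not called, and 8 of the 27 DNA replication genes held it too. Among kinesin genes, it was found for 12 of 27 tested (44.4%) and for 4 of the 9 that fell (44.4%). At least 2 were found for 3 of the 15 genes that fell, for 4 of all 33, the fourth being *TES*, which was not called, for 2 of the 27 DNA replication genes and for 4.05% of all tested genes. The last 150 bases before the start are shown for these 3 genes and for *KN*. They were picked from genes that fell and hold the element, and a link between the element and the fall was not tested. Each is given 5′ to 3′ on the gene's strand with AACGG, or its reverse complement CCGTT, in capitals.
MAP65-4, chr3:22480981-22481130, minus strand: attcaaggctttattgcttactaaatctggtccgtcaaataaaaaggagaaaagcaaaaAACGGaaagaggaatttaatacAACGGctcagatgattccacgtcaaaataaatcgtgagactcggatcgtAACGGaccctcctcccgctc
MAP65-3, chr5:20964538-20964687, minus strand: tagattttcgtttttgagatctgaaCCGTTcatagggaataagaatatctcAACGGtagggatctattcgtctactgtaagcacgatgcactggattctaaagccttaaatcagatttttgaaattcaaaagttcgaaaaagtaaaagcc
PAKRP1L, chr3:8518986-8519135, plus strand: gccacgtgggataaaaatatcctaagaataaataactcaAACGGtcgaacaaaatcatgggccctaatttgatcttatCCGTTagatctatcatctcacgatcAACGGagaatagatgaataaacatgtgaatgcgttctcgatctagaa
KN, chr1:2711001-2711150, minus strand: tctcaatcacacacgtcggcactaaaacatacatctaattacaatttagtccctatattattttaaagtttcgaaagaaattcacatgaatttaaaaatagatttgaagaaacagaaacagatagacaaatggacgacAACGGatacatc
*MAP65-4* and *PAKRP1L* each hold 3 cores in this stretch, *MAP65-3* holds 2 and *KN* holds 1, which begins 12 bases before its start. *PAKRP1L* (AT3G23670), which encodes a phragmoplast kinesin, fell by 0.24 (SE 0.06, adjusted p = 0.0254), a call that was made in 1 of the 6 fits with a library left out, that without WT library 3. A match to these letters is a description and not a shown binding site.

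Kinesins, the microtubule motors that also carry the phragmoplast, had more lower than higher calls. The cytokinesis list holds phragmoplast kinesins too, so its count and the kinesin count may share genes. Of 27 tested, 9 fell (5 held) and none rose, with a median of -0.14. At an unadjusted p under 0.05, 1 kinesin was higher, and DESeq2 called none higher. The largest change was in *KP1* (AT3G44730), a kinesin gene whose product associates with mitochondria, at 14.2, 15.3 and 15.6 CPM in *pi4kß1ß2* roots and 28.1, 27.9 and 25.8 CPM in WT roots (-0.86, SE 0.06, adjusted p = 9.07e-05). *ATK4* (-0.45, SE 0.09) and *ATK5* (-0.36, SE 0.06), minus-end-directed motors of the spindle, also fell. The count was 5 without WT library 2, *pi4kß1ß2* library 1 or *pi4kß1ß2* library 2, and 5 under the library-size scaling. Without WT library 2 the median was -0.07 and 1 kinesin was higher.

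DNA replication genes, which are used in the same dividing cells one phase earlier, were not called. None of 27 passed the threshold in either direction in edgeR, DESeq2 or the edgeR likelihood ratio test, and their differences spanned -0.16 to 0.19 with a median of 0.03. At an unadjusted p under 0.05, 5 were higher and 1 was lower. The library-size scaling called 4 higher, and 1 was higher without WT library 2. Proteasome subunits, a housekeeping family, behaved likewise: none of 35 was called, with differences between -0.09 and 0.17, 1 was higher at an unadjusted p under 0.05, and DESeq2 called none. Among 40 histone genes 3 fell and none rose, with 2 higher at an unadjusted p under 0.05 and none higher in DESeq2. The largest fall was that of *HIS1-3* (AT2G18050), the linker histone gene induced by drought (-1.05, SE 0.18). The count of lower histone genes was 10 without WT library 2, and 1 histone gene was higher without WT library 3. Ribosomal proteins, of every compartment, gave 32 higher and 34 lower of 304, with a median of 0.06. Their higher calls were not stable, at 86 under the library-size scaling and between 11 and 21 without WT library 1, WT library 2 or any 1 *pi4kß1ß2* library, and 10 were held, against 33 of the lower calls.

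**Figure D3:**
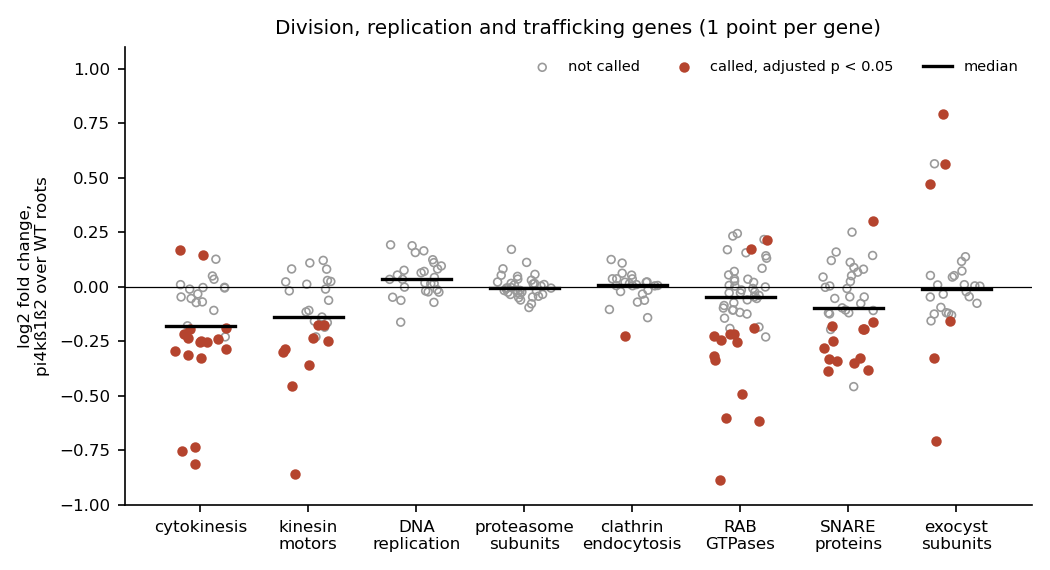
Log2 fold change of *pi4kß1ß2* over WT roots for each tested gene of 8 lists or families. Filled points are called genes, open points are not called and black lines are medians. Cytokinesis and kinesin genes lay mostly below 0, with medians of -0.18 and -0.14, and DNA replication and proteasome genes stayed between -0.16 and 0.19.

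SNARE and RAB genes, which serve membrane traffic, had more lower than higher calls. Exocyst genes had equal counts in both directions, and nearly all clathrin genes were not called. SNARE proteins drive membrane fusion, and 12 of 39 fell (8 held) while 1 rose. The higher call was lost without WT library 2, WT library 3, *pi4kß1ß2* library 1 or *pi4kß1ß2* library 2. The cytokinesis list holds SNARE genes too, so its count and the SNARE count may share genes. *NPSN12* (AT1G48240) and *NPSN13* (AT3G17440), SNARE genes with roles at the plasma membrane and cell plate, fell by 0.38 (SE 0.05) and 0.35 (SE 0.04). *VAMP711* (AT4G32150), a SNARE of the vacuole, fell by 0.33 (SE 0.06), and *VAMP721*, the most abundant SNARE transcript and a partner of secretion, was not called (-0.01, SE 0.04, or 0.03 under the library-size scaling).

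RAB GTPases mark membrane compartments, and 12 of 51 fell (11 held) while 2 rose. Of the 3 with the largest changes, *RABG3B* and *RAB7A* belong to the group that acts at the vacuole. *RABG3B* (AT1G22740) was at 9.22, 8.93 and 8.52 CPM in *pi4kß1ß2* roots and 15.7, 17.0 and 16.6 CPM in WT roots (-0.89, SE 0.06, adjusted p = 9.83e-05). *RAB7A* (AT2G21880) and *RABA6a* (AT1G73640) fell by 0.62 (SE 0.11) and 0.60 (SE 0.08). *RAB1A* and *RABE1c*, the most abundant RAB transcripts, were not called. The higher count of 2 was 1 without WT library 2, *pi4kß1ß2* library 1 or *pi4kß1ß2* library 2.

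The exocyst, which tethers secretory vesicles, had 3 of 28 subunit genes higher and 3 lower. *EXO70H8* (AT2G28650) rose by 0.79 (SE 0.12) and *EXO70G2* (AT1G51640) fell by 0.71 (SE 0.13), and the core genes *SEC6* and *SEC10* were not called. Without WT library 2, *pi4kß1ß2* library 2 or *pi4kß1ß2* library 3, 1 exocyst gene was lower. Of 24 genes for clathrin-mediated endocytosis, the light chain gene *CLC2* (AT2G40060) alone fell (-0.23, SE 0.05), and the other 23, including all 14 for adaptors, were not called. None was higher in edgeR or DESeq2, with 1 higher at an unadjusted p under 0.05, 1 higher under the library-size scaling and 2 lower without *pi4kß1ß2* library 1. Among 17 subunits of the proton pumps that acidify the vacuole, *VHA-E3* (AT1G64200) stood apart at 61.7, 57.1 and 58.3 CPM in *pi4kß1ß2* roots and 99.4, 94.3 and 97.3 CPM in WT roots (-0.72, SE 0.04). The other 2 that were lower, *VHA-B1* and *VHA-G2*, changed by less than 0.2, and 1 subunit was lower without WT library 1, WT library 3, *pi4kß1ß2* library 1 or *pi4kß1ß2* library 2. None rose in edgeR or DESeq2, nor at an unadjusted p under 0.05.

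Genes of the response to unfolded proteins in the endoplasmic reticulum, which secretion under strain switches on, were mostly not called. Beside *NAC103*, the chaperone regulator gene *BAG7* (AT5G62390) rose by 0.26 (SE 0.04), and 20 of 23 were not called. Those included *BIP1* and *BIP2*, which encode the main luminal chaperones, at -0.05 (SE 0.06) and -0.02 (SE 0.07). *BZIP17* was the other gene called higher (0.15), and this call was made in 1 of the 6 fits with a library left out, that without WT library 3. Without WT library 1 a second gene was lower.

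Actin regulators were called in both directions. Of 46 tested, 9 rose (5 held) and 12 fell (6 held), with a median of -0.05. Of 4 profilins, which supply actin monomers, 3 fell (2 held) and *PRF4* was not called (0.24). *PRF1* (AT2G19760) was at 192, 185 and 202 CPM in *pi4kß1ß2* roots and 273, 265 and 294 CPM in WT roots (-0.52, SE 0.05, adjusted p = 0.000399), and *PRF2* (AT4G29350) fell by 0.27 (SE 0.05). The depolymerising factor gene *ADF1* (-0.28, SE 0.04) and the cyclase-associated protein gene *CAP1* (-0.26, SE 0.05) also fell. Formins, which nucleate filaments, gave 6 higher (3 held) and 2 lower (none held) of 11, led by AT3G05470 (0.57, SE 0.11) and AT3G07540 (0.44, SE 0.07). Villins and fimbrins, which bundle filaments, gave 2 higher and 2 lower of 7, with 1 held in each direction. Among them *FIM1* (AT4G26700), a fimbrin, averaged 15.06 ± 0.48 CPM in *pi4kß1ß2* roots and 10.14 ± 0.87 CPM in WT roots (SD, n = 3), a difference of 0.57 (SE 0.08). None of the 7 genes of the ARP2/3 and SCAR complexes was called, with differences between -0.12 and 0.06. The number of higher calls was 5 without *pi4kß1ß2* library 2.

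Of the genes of sugar supply, 40.9% fell, against 15.2% of all tested genes, and 15.9% rose, against 11.3%. Of 44 tested, 18 fell (13 held) and 7 rose (6 held), with a median of -0.24. Most of the fall was among transporters, of which 10 of 17 fell. *SWEET11* (AT3G48740) and *SWEET12* (AT5G23660) encode exporters that release sucrose to the phloem. *SWEET11* was at 1.30, 2.27 and 1.5 CPM in *pi4kß1ß2* roots and 11.8, 10.7 and 11.6 CPM in WT roots (-2.75, SE 0.18, adjusted p = 9.07e-05), and *SWEET12* fell by 1.07 (SE 0.09). *SUC2* (AT1G22710) was at 19.4, 21.2 and 15.9 CPM in *pi4kß1ß2* roots and 66.7, 64.2 and 64.5 CPM in WT roots (-1.79, SE 0.10, adjusted p = 6.2e-05). All 3 genes were lower in each mutant library than in any WT library. *SUC2* is itself 1 of the 6 phloem markers and supplied most of the fall of their sum, and the other 5 summed to 73.3, 78.4 and 68.5 CPM in *pi4kß1ß2* roots and 94.7, 102 and 102 CPM in WT roots. The xylem markers averaged 203 CPM in *pi4kß1ß2* roots and 328 CPM in WT roots. The part of cell type balance in the fall of the transporters was not tested.

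Vacuolar and uptake transporters fell too. *SWEET2* (AT3G14770), a vacuolar glucose store of root cells, was at 3.28, 2.95 and 2.83 CPM in *pi4kß1ß2* roots and 7.30, 7.75 and 8.44 CPM in WT roots (-1.38, SE 0.10). *SWEET16* and *SWEET17*, of the tonoplast, fell by 1.36 (SE 0.17) and 0.68 (SE 0.06), and *STP1*, a hexose importer, fell by 0.63 (SE 0.08). Other members rose. *STP13* (AT5G26340), a hexose importer gene induced by stress and in defence, was at 101, 71.9 and 74.3 CPM in *pi4kß1ß2* roots and 35.7, 33.0 and 32 CPM in WT roots (1.30, SE 0.14), and *SWEET14* (AT4G25010) rose by 1.11 (SE 0.17).

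Sucrose synthases cleave imported sucrose, and *SUS3*, *SUS5* and *SUS6* rose. *SUS4* fell, with fold changes of -0.36 to -0.22 when 1 library was left out. Its call was lost without WT library 1, WT library 2, *pi4kß1ß2* library 2 or *pi4kß1ß2* library 3. *SUS3* (AT4G02280) was at 36.8, 40.1 and 41.4 CPM in *pi4kß1ß2* roots and 19.3, 16.4 and 19.1 CPM in WT roots (1.11, SE 0.08, adjusted p = 8.11e-05). *SUS6* (AT1G73370), a sucrose synthase gene of sieve elements, was at 37.5, 35.1 and 32.3 CPM in *pi4kß1ß2* roots and 16.8, 18.6 and 16.4 CPM in WT roots (1.02, SE 0.07). *SUS5* also rose (0.43, SE 0.08), while *CINV1*, a cytosolic invertase gene of root growth, fell by 0.18 (SE 0.04). Of 16 starvation and trehalose genes, 5 fell (1 held), 1 rose (held) and 10 were not called. *DRM1* (AT1G28330), a gene raised in dormant and starved tissue, fell by 0.74 (SE 0.13). AT2G33830, of the same family, was at 76.0, 58.3 and 39.4 CPM in *pi4kß1ß2* roots and 161, 237 and 226 CPM in WT roots (-1.85, SE 0.31, adjusted p = 0.0139, and 0.0632 without *pi4kß1ß2* library 2, the highest of the 6 fits with a library left out). *BZIP11*, a metabolic factor gene whose translation sucrose represses, rose by 0.50 (SE 0.05). Starch synthesis, breakdown and statolith genes gave 2 higher and 1 lower of 34, none of them held, and with any 1 library left out 1 to 3 were higher and 0 to 2 lower. *BAM3* (AT4G17090), the main beta-amylase gene of leaves, was at 1.84, 1.76 and 0.317 CPM in *pi4kß1ß2* roots and 7.77, 7.40 and 1.90 CPM in WT roots and was not called (-2.14, SE 0.83), although the genotypes did not overlap. Its lowest level was in library 3 of each genotype.

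**Figure D4:**
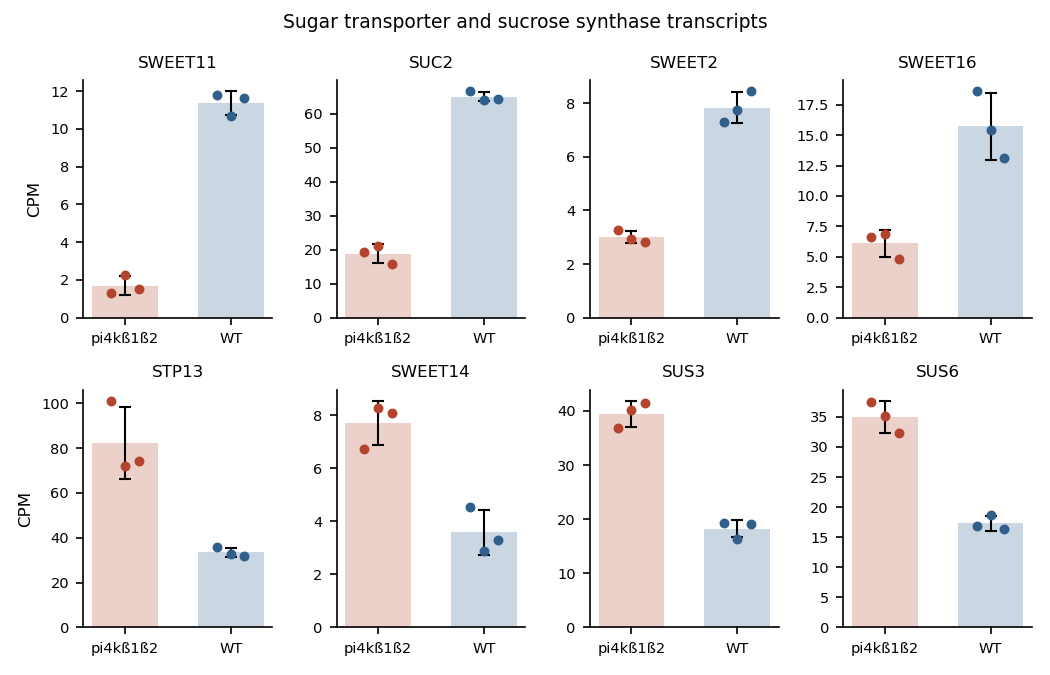
CPM per library of 8 sugar transporter and sucrose synthase genes in *pi4kß1ß2* (red) and WT (blue) roots. Points are libraries, bars means and error bars SD (n = 3). *SWEET11*, *SUC2*, *SWEET2* and *SWEET16* were lower in every *pi4kß1ß2* library, and *STP13*, *SWEET14*, *SUS3* and *SUS6* were higher in every one.

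Lignin genes fell at early and late steps of the pathway. Of 26 tested, 12 fell (9 held) and 3 rose (2 held), with a median of -0.25. Of the 12, 6 encode laccases, which couple monolignols in the wall (6 of 8 fell), 4 encode monolignol enzymes and 2 act at the entry of the pathway. *LAC2* (AT2G29130) was at 2.40, 2.56 and 2.81 CPM in *pi4kß1ß2* roots and 12.9, 11.3 and 12.0 CPM in WT roots (-2.22, SE 0.10, adjusted p = 1.34e-05). *LAC4* and *LAC17*, the laccase genes of vessels and fibres, fell by 0.81 (SE 0.06) and 0.77 (SE 0.07), and *LAC12* rose (0.98, SE 0.19). Of the enzymes that feed the pathway, *PAL4* (AT3G10340) was at 24.6, 23.0 and 21.8 CPM in *pi4kß1ß2* roots and 56.7, 54.4 and 46.0 CPM in WT roots (-1.18, SE 0.09). *PAL3*, a minor isoform gene, rose by 1.21 (SE 0.23). *CCOAOMT1*, the most abundant member, was higher by 0.15, a call made in none of the 6 fits with a library left out.

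Proteases of dying vessels followed the same direction. Of 18 genes for cell death and stress proteases or nucleases, 10 fell (8 held) and *RNS1* rose. *XCP2* (AT1G20850) was at 59.7, 60.1 and 58.2 CPM in *pi4kß1ß2* roots and 99.5, 99.3 and 104 CPM in WT roots (-0.77, SE 0.04, adjusted p = 2.6e-05). *XCP1* (-0.58, SE 0.05), *MC9*, a metacaspase gene of xylem (-0.58, SE 0.10), *CEP1* (-0.63, SE 0.10) and the broadly expressed *RD21A* (-0.32, SE 0.06) fell also. *RNS1* (AT2G02990), a ribonuclease gene of phosphate starvation and wounding, was at 9.48, 8.17 and 8.88 CPM in *pi4kß1ß2* roots and 4.46, 2.78 and 3.16 CPM in WT roots (1.35, SE 0.17). *XCP1* and *XCP2* are themselves 2 of the 6 xylem markers, and of the other 4 the 3 secondary wall *CESA* genes fell by 0.67 to 0.79, beside the falls of laccase and protease genes. Without *XCP1* and *XCP2* the xylem markers averaged 75.3 CPM in *pi4kß1ß2* roots and 125 CPM in WT roots, and what cell type balance contributed was not tested. Flavonoid genes, the other branch of the phenylpropanoid pathway, had a median of -0.40 over 12 tested members, yet none was called, the genotypes overlapped for all 12, and neither DESeq2 nor an unadjusted p under 0.05 called any.

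Nitrogen genes went the other way. Of 28 genes for ammonium and amino acid uptake and assimilation, 12 rose (7 held) and 1 fell, a median of 0.21 and the highest share of higher calls among the 22 lists. *LHT1* (AT5G40780), the main amino acid importer of the root epidermis, was at 38.8, 48.9 and 52.3 CPM in *pi4kß1ß2* roots and 23.3, 17.7 and 21.3 CPM in WT roots (1.17, SE 0.15, adjusted p = 0.00286). *AAP3* (AT1G77380), an amino acid permease gene of root phloem, was at 48.2, 37.2 and 33.4 CPM in *pi4kß1ß2* roots and 18.7, 23.2 and 18.6 CPM in WT roots (0.97, SE 0.16). *AAP1*, for uptake at the root surface, rose by 0.80 (SE 0.10), and the ammonium transporter genes *AMT1;2* (AT1G64780) and *AMT2;1* rose by 0.73 (SE 0.12) and 0.33 (SE 0.07). None of these groups of libraries overlapped. The exception was *GDU1* (AT4G31730), which encodes a regulator of amino acid export, at 12.2, 16.4 and 18.8 CPM in *pi4kß1ß2* roots and 30.4, 26.4 and 32.8 CPM in WT roots (-0.92, SE 0.17).

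Assimilation genes rose by less. *GLN1;3*, a cytosolic glutamine synthetase gene of vascular tissue, rose by 0.36 (SE 0.05) and *GLT1*, the NADH-dependent glutamate synthase gene that works with it, rose by 0.37 (SE 0.07). *GLN1;2* had 0.56 and was not called, although DESeq2 did call it (adjusted p = 0.043, and 0.0329 to 0.246 over all alternatives). A second gene of the list was lower without WT library 1 or *pi4kß1ß2* library 3, and the median was 0.33 without WT library 1.

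Sulfur genes gave 9 lower (4 held) and 3 higher (2 held) of 29, with a median of -0.09. *SULTR3;5* (AT5G19600), which helps load sulfate into the xylem, was at 26.1, 19.8 and 13.3 CPM in *pi4kß1ß2* roots and 62, 58.2 and 59.8 CPM in WT roots (-1.61, SE 0.25). *SULTR1;3* (AT1G22150), a sulfate transporter gene of the phloem, was at 3.04, 3.44 and 2.87 CPM in *pi4kß1ß2* roots and 1.1, 1.04 and 0.832 CPM in WT roots (1.65, SE 0.16). Sulfur deficiency markers went both ways: *LSU1* fell by 0.61 (SE 0.12) and *GGCT2;1*, of glutathione breakdown, rose by 0.74 (SE 0.12). Of the reduction genes, *APS4* (-0.48, SE 0.06) and *GSH1* (-0.24, SE 0.05) fell. The lower count was 4 without WT library 3.

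Potassium, zinc and copper genes gave 6 higher (3 held) and 7 lower (5 held) of 33. *COPT1* (AT5G59030), the copper importer of the root tip, was at 19.2, 16.1 and 16.9 CPM in *pi4kß1ß2* roots and 8.37, 9.26 and 9.42 CPM in WT roots (0.95, SE 0.09). *CCH*, which encodes a copper chaperone, and *FSD1*, which encodes an iron superoxide dismutase used when copper is short, fell by 0.47 (SE 0.04) and 0.38 (SE 0.04). *GORK* (AT5G37500), the outward potassium channel of root hairs and guard cells, was at 18.9, 18.7 and 19.4 CPM in *pi4kß1ß2* roots and 31.4, 29.9 and 28.1 CPM in WT roots (-0.65, SE 0.05). Without WT library 2 the higher count was 3.

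Gibberellin genes moved at synthesis, inactivation and perception. Of 25 tested, 9 rose (5 held) and 3 fell (2 held). *GA20OX3* (AT5G07200), which makes precursors, was at 7.07, 7.07 and 8.43 CPM in *pi4kß1ß2* roots and 3.99, 2.95 and 2.26 CPM in WT roots (1.30, SE 0.20). *GA3OX2* (AT1G80340), which makes the active hormone in roots, was lower by 1.00 (SE 0.23), a call lost without WT library 2, *pi4kß1ß2* library 2 or *pi4kß1ß2* library 3. Genes for the inactivating oxidases went both ways. *GA2OX1* (AT1G78440) was at 0.259, 0.146 and 0.254 CPM in *pi4kß1ß2* roots and 1.17, 4.18 and 3.92 CPM in WT roots (-3.79, SE 0.61). *GA2OX4* (AT1G47990) was at 4.17, 2.59 and 1.5 CPM in *pi4kß1ß2* roots and 0.496, 0.673 and 0.404 CPM in WT roots (2.38, SE 0.43). Neither pair of groups overlapped.

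Of the gibberellin receptor genes *GID1B* rose (0.59, SE 0.07) and *GID1C* fell (-0.49, SE 0.08). *GASA4* (AT5G15230), a small peptide gene that gibberellin induces, was at 716, 666 and 701 CPM in *pi4kß1ß2* roots and 456, 442 and 475 CPM in WT roots (0.60, SE 0.05, adjusted p = 0.000114). It was the member with the most reads, and its groups did not overlap.

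**Figure D5:**
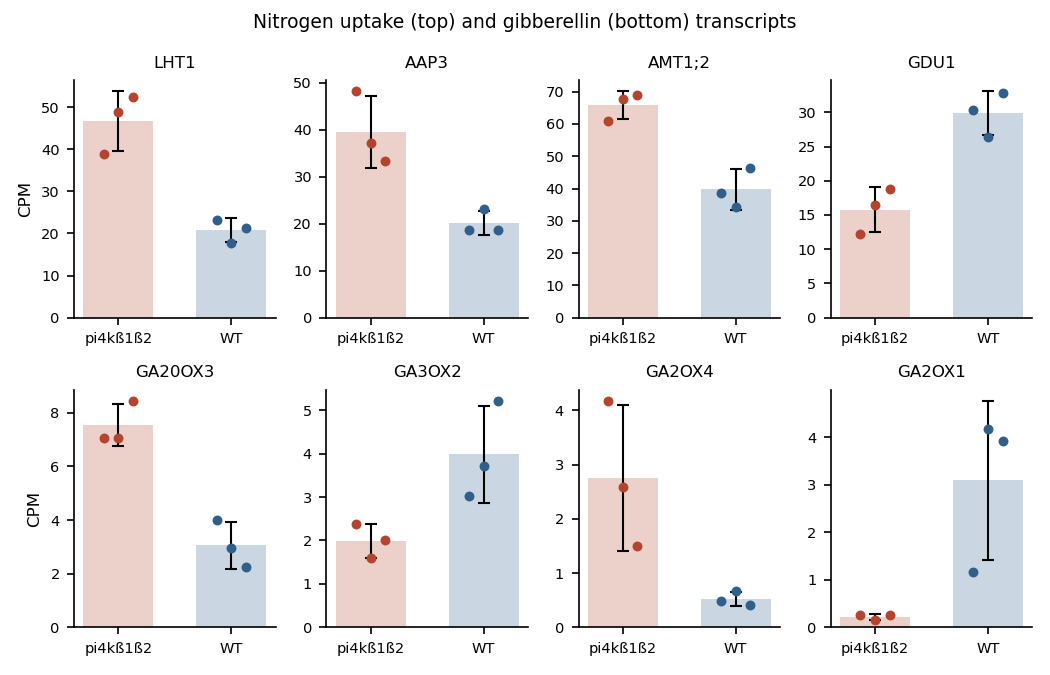
CPM per library of 4 nitrogen uptake genes (top) and 4 gibberellin genes (bottom) in *pi4kß1ß2* (red) and WT (blue) roots. Points are libraries, bars means and error bars SD (n = 3). *LHT1*, *AAP3*, *AMT1;2*, *GA20OX3* and *GA2OX4* were higher and *GDU1*, *GA3OX2* and *GA2OX1* were lower in every *pi4kß1ß2* library.

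Other hormone pathways changed in fewer genes. Brassinosteroid genes gave 4 higher and 3 lower of 21, of which 1 each was held: the receptor gene *BRI1* rose (0.30, SE 0.05) and *BR6OX1* (AT5G38970), for a late step of synthesis, fell to 5.99, 5.71 and 4.73 CPM in *pi4kß1ß2* roots, against 9.68, 11.9 and 10.5 CPM in WT roots (-0.96, SE 0.12). The higher count was 1 or 2 without WT library 2, WT library 3, *pi4kß1ß2* library 1 or *pi4kß1ß2* library 2, and the lower count was 1 without WT library 1 or *pi4kß1ß2* library 3. Abscisic acid genes gave 7 lower (4 held) and 4 higher (none held) of 37. The held ones were *ABA1*, for synthesis (-0.35, SE 0.05), the receptor gene *PYL1* (-0.54, SE 0.05), the kinase gene *SNRK2.3* (-0.42, SE 0.06) and the dehydrin gene *COR47* (-0.61, SE 0.09). The lower count was 4 without *pi4kß1ß2* library 3, and the higher count lay between 0 and 2 with any 1 library left out.

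Jasmonate genes gave 2 higher (1 held) and 2 lower (both held) of 28. *ACX1*, for synthesis, rose by 0.26 (SE 0.04) and the factor genes *MYC3* and *MYC4* fell by 0.26 (SE 0.04) and 0.33 (SE 0.07). *MYC2*, the most abundant bHLH factor, varied within genotypes instead, at 225, 293 and 124 CPM in *pi4kß1ß2* roots and 316, 281 and 127 CPM in WT roots (-0.18, SE 0.50, not called). The NAC genes *ATAF2* and *NAC102* likewise had their lowest level in the library numbered 3 of each genotype. The higher count was 4 without WT library 1 and 1 without WT library 2, WT library 3, *pi4kß1ß2* library 1 or *pi4kß1ß2* library 2.

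Sterol and sphingolipid genes, whose products share the membranes with phosphoinositides, fell or were not called. Of 31 tested, 11 fell (7 held) and none rose, with none higher in DESeq2 or at an unadjusted p under 0.05, and a median of -0.09. *CYP710A2* (AT2G34490), a sterol desaturase that makes the sterols brassicasterol and stigmasterol, was at 13.6, 10.3 and 12.0 CPM in *pi4kß1ß2* roots and 30.5, 26.2 and 30.6 CPM in WT roots (-1.28, SE 0.11, adjusted p = 0.000232). Its neighbour *CYP710A1*, for stigmasterol, fell by 0.67 (SE 0.08) and *SQE3*, a squalene epoxidase gene, by 0.85 (SE 0.12). Among sphingolipid genes *SBH2*, for base hydroxylation, fell by 0.31 (SE 0.06). The count was 7 without *pi4kß1ß2* library 2 or *pi4kß1ß2* library 3, and 7 under the library-size scaling, and the median was -0.14 without WT library 2.

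Among triterpene genes, *MRN1* (AT5G42600), the marneral synthase of a root gene cluster, was at 32.7, 32.8 and 35.4 CPM in *pi4kß1ß2* roots and 107, 98.9 and 83.0 CPM in WT roots (-1.52, SE 0.10). *BARS1* (AT4G15370), the baruol synthase, rose by 3.90 (SE 0.33). No gene of the thalianol cluster was called, with differences between -0.49 and -0.17, and the count of lower triterpene genes was 2 without WT library 3 and 4 without *pi4kß1ß2* library 1.

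Signalling peptides gave 7 lower (5 held) and 3 higher (all held) of 31. *RALF1* (AT1G02900), which alkalinises the apoplast and slows root elongation through the receptor kinase FERONIA, was at 37.3, 40.8 and 38.9 CPM in *pi4kß1ß2* roots and 80.4, 75.6 and 79.2 CPM in WT roots (-1.01, SE 0.05, adjusted p = 2.03e-05). *RALF23* fell by 0.50 (SE 0.06). Precursors of phytosulfokine, a sulfated growth peptide, went both ways: *PSK5* (0.85, SE 0.09) and *PSK1* (0.72, SE 0.11) rose and *PSK3* fell (-0.61, SE 0.07). *CLE14* rose by 0.79 (SE 0.11).

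Calcium-binding EF-hand proteins had 19 of 61 members higher (13 held) and 6 lower (3 held), with a median of 0.11. *TCH3* (AT2G41100), a calmodulin-like gene induced by touch, was at 210, 218 and 169 CPM in *pi4kß1ß2* roots and 62, 57.4 and 32.3 CPM in WT roots (1.98, SE 0.29, adjusted p = 0.00921). AT3G47480, an EF-hand gene, was at 7.52, 7.81 and 6.76 CPM in *pi4kß1ß2* roots and 0.339, 0.278 and 0.785 CPM in WT roots (3.96, SE 0.30), and *CML41*, whose product regulates plasmodesmata in immunity, rose by 1.42 (SE 0.17). Without WT library 1 or *pi4kß1ß2* library 2, 3 members were lower, and the median was 0.20 without WT library 1. Of 14 cysteine-rich receptor-like kinases, 4 rose (2 held) and none fell, with 1 lower at an unadjusted p under 0.05 and none lower in DESeq2, although 1 was lower without *pi4kß1ß2* library 3. *CRK18* (AT4G23260) led them at 13, 13.8 and 13.6 CPM in *pi4kß1ß2* roots and 4.28, 3.85 and 3.97 CPM in WT roots (1.74, SE 0.08, adjusted p = 1.34e-05).

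Genes that mitochondria under stress switch on through ANAC factors gave 6 higher (5 held) and 1 lower (held) of 17, with a median of 0.30. *UGT74E2* (AT1G05680), whose product glucosylates indole-butyric acid, was at 36.6, 48.1 and 48.5 CPM in *pi4kß1ß2* roots and 16.9, 11.4 and 14.5 CPM in WT roots (1.64, SE 0.18). *AOX1A*, the alternative oxidase gene, rose by 0.33 (SE 0.06), *NDB2*, its partner dehydrogenase gene, by 0.30 (SE 0.05) and *NDB4* by 1.58 (SE 0.18). *ANAC016* rose by 1.03 (SE 0.15). Genes annotated as HSP20-like chaperones or small heat shock proteins had 9 of 30 members higher (6 held) and 1 lower. The lower call was lost without WT library 1, WT library 3 or *pi4kß1ß2* library 3. *HSP23.6-MITO* (AT4G25200), of mitochondria, was at 1.72, 1.22 and 0.993 CPM in *pi4kß1ß2* roots and 0.391, 0.255 and 0.309 CPM in WT roots (2.04, SE 0.30). The larger chaperones of the HSP70 and HSP90 families had 1 higher and 1 lower of 13: *Hsp70-2* rose (0.49, SE 0.08) and *HSP70* (AT3G12580) fell by 0.46 (SE 0.10), and the *HSP70* call was lost without WT library 2.

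Wall families held many calls in both directions. Of 47 pectin methylesterase and inhibitor genes, 17 fell (10 held) and 11 rose (10 held). *PME3* (AT3G14310), a major root pectin methylesterase gene, was at 310, 346 and 312 CPM in *pi4kß1ß2* roots and 509, 516 and 600 CPM in WT roots (-0.75, SE 0.08, adjusted p = 0.000405). Pectin lyases, polygalacturonases and the proteins named for them gave 18 lower (14 held) and 11 higher (8 held) of 54. *PGIP1* (AT5G06860), which encodes an inhibitor of fungal polygalacturonases, was at 583, 573 and 548 CPM in *pi4kß1ß2* roots and 255, 238 and 278 CPM in WT roots (1.14, SE 0.06, adjusted p = 3.1e-05). AT4G01890, a pectin lyase-like gene, had the lowest fold change of that family (-4.37, SE 0.37) at under 0.2 CPM in each mutant library.

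Of 97 extensin and proline-rich protein genes, 21 fell (16 held) and 13 rose (4 held), and the higher count ran between 4 without WT library 2 and 20 without WT library 3, with 5 without *pi4kß1ß2* library 1 and 7 without *pi4kß1ß2* library 3. Lipid-transfer and hybrid proline-rich proteins, which bind lipids in the wall and cuticle, gave 21 lower (18 held) and 13 higher (8 held) of 51. *LTP2* (AT2G38530) was at 138, 157 and 147 CPM in *pi4kß1ß2* roots and 59.9, 28.6 and 33.4 CPM in WT roots (1.86, SE 0.32), with an adjusted p between 0.0514 and 0.0576 when any 1 of the *pi4kß1ß2* libraries was left out. *DIR1* (AT5G48485), of systemic resistance, fell by 2.81 (SE 0.23). Subtilases, the proteases of the apoplast, gave 8 lower (5 held) and 4 higher (2 held) of 27. *AIR3* (AT2G04160), first known from lateral root emergence, was at 167, 160 and 172 CPM in *pi4kß1ß2* roots and 89.4, 86.5 and 98.2 CPM in WT roots (0.87, SE 0.06, adjusted p = 6.84e-05). Subtilase counts were 5 lower without WT library 3, *pi4kß1ß2* library 2 or *pi4kß1ß2* library 3, and 2 higher without WT library 1, WT library 2 or *pi4kß1ß2* library 3.

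Families of specialised metabolism and detoxification were called in both directions as well. Cytochromes P450 gave 40 lower (31 held) and 29 higher (23 held) of 146. *CYP712A1* (AT2G42250) was at 0.495, 0.415 and 0.528 CPM in *pi4kß1ß2* roots and 6.83, 5.68 and 6.11 CPM in WT roots (-3.68, SE 0.15, adjusted p = 1.06e-05). The largest rises were those of *CYP71A13* (4.54, SE 0.50) and *CYP71A12* (4.32, SE 0.48), neighbouring near-copies whose reads were counted only where they mapped to a single gene. UDP-glycosyltransferases gave 27 higher (20 held) and 21 lower (14 held) of 100. *UGT72E2* (AT5G66690), whose product glucosylates monolignols, was at 326, 305 and 330 CPM in *pi4kß1ß2* roots and 201, 184 and 189 CPM in WT roots (0.74, SE 0.05, adjusted p = 7.36e-05). Of 37 MATE efflux proteins, 11 rose (7 held) and 9 fell (6 held), and *DTX1* (AT2G04040), an exporter of toxic compounds, was at 5.52, 5.39 and 4.48 CPM in *pi4kß1ß2* roots and 0.939, 0.998 and 1.17 CPM in WT roots (2.3, SE 0.15). ABC transporters gave 15 higher (12 held) and 13 lower (9 held) of 59, with *ABCC10* (AT3G59140) higher by 1.03 (SE 0.08) and *ABCG35* lower by 0.22 (SE 0.04).

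Among transcription factors, 28.4% of NAC, 11.2% of MYB, 13.5% of bHLH and 16.7% of ERF genes rose, against 11.3% of all tested genes. The shares that fell were 14.9%, 28.8%, 28.1% and 18.1% in the same order, against 15.2%. NAC factors gave 19 higher (15 held) and 10 lower (5 held) of 67, MYB factors 9 higher (6 held) and 23 lower (13 held) of 80, bHLH factors 12 higher (6 held) and 25 lower (19 held) of 89, and ERF factors 12 higher (8 held) and 13 lower (10 held) of 72. *NAC071* (AT4G17980), which acts in tissue reunion after cutting, was at 5.47, 4.51 and 5.54 CPM in *pi4kß1ß2* roots and 1.12, 0.812 and 0.785 CPM in WT roots (2.52, SE 0.17, adjusted p = 8.29e-05). *MYB87* (AT4G37780) fell by 1.71 (SE 0.18), and AT2G44940, of the ERF family, was at 12.9, 9.49 and 11.3 CPM in *pi4kß1ß2* roots and 25.3, 28.0 and 35.6 CPM in WT roots (-1.40, SE 0.17). The largest bHLH rises, of *BHLH100*, *bHLH38* and *bHLH39*, which the plant raises when iron is short, lay between 1.97 and 2.62. With 1 library left out, lower counts were 6 and 5 for NAC factors without WT library 1 and without *pi4kß1ß2* library 1, and 15 for MYB factors without WT library 2, and the higher bHLH count was 7 without *pi4kß1ß2* library 1 or *pi4kß1ß2* library 3.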

How the data were processed

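Poly(A) RNA from roots was sequenced as stranded single-end libraries. Per the study's methods and the labels, the authors trimmed reads, removed ribosomal RNA, used STAR with the TAIR10 genome, kept reads with a single match and deposited them as raw counts per gene. The deposited counts of the library strand, which held 96.6 to 96.8% of counts on either strand, were used here, with no correction. Rows for unmapped, multi-mapping, ambiguous and unassigned reads were left out, and 97.2 to 97.3% of reads lay on genes.

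The filter asked for 1 CPM or more in 3 or more of the 6 root libraries, and the genes left were tested with edgeR 4.0.16 in R 4.3.3 (TMM factors, robust glmQLFit, glmQLFTest, Benjamini-Hochberg adjustment, threshold 0.05). The SE is the log2 fold change over the root of the F statistic. The leaf libraries of the series were not used. The CPM shown are TMM-normalised and not divided by gene length. Of the tested genes, 123 passed the filter through *pi4kß1ß2* libraries alone, among them 107 of the higher calls, and 85 through WT libraries alone, among them 77 of the lower calls. The test was tried on simulated counts in which 200 of 19694 genes were changed. There 12.0% of its calls were false, above the threshold, and 17.3% of those of the likelihood ratio test and 25.7% of those of DESeq2. More of the calls may thus be false than the threshold states. In the roots 26.6% of genes were called, so the simulated shares need not hold for them. DESeq2 1.42.0, edgeR's likelihood ratio test, other scalings, other filters, unstranded counts, a replicate block and the omission of each library were the alternatives. The study's methods describe the replicates as biological repetitions, each from RNA pooled over many plants. The labels do not say whether they were separate cultures, so p-values measure the spread between these pooled samples.

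Lists were curated, and families were taken from RefSeq symbols and product descriptions (37051 of 37336 gene identifiers matched RefSeq), with unrelated matches dropped. Members, lists and families were chosen with earlier results of these data known, and no pathway list or family was tested as a set; the summed levels of cell type markers were compared by exact permutation over libraries. The marker sums without *SUC2* and without *XCP1* and *XCP2* were added after seeing the data. The genes named were, for each list or family, the 3 with the largest fold change among called genes whose libraries did not overlap and the 2 with the highest mean CPM, both kinase genes and the 10 most abundant genes; a gene named beyond these, the promoter element and the neighbours of the kinase genes were chosen after values were seen. Some genes under this rule were not described.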

Additional observations from a re-analysis of the deposited data

How the results depend on the processing

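Counts of called genes stayed within 1.5 times of the 2233 higher and 3000 lower genes of the main fit here under each alternative run. The study, which used a likelihood ratio test, gave larger counts in both directions. DESeq2 called 2110 higher and 2990 lower, the likelihood ratio test 1780 and 2756, and no filter 2337 and 3016. With 1 library left out, 1506 to 1870 genes were higher and 2384 to 2563 were lower. Deviations of same-numbered libraries from the mean of their genotype correlated at -0.01, 0.34 and 0.60 for numbers 1, 2 and 3. Libraries numbered 3 thus shared part of their deviation, and the labels do not say whether equal numbers mark a shared batch. The main fit had no term for the replicate number. With that number as a block, 2013 genes were higher and 2854 lower. Of 308 called genes that were listed or named, 215 were called in each of the 6 fits without a library, and none changed sign. Over the list and family counts, 1136 stayed within 1.5 times of the count of the main fit and 152 did not, those without 1 library being given beside each list. *VAMP721*, not called, moved to 0.03 under the library-size scaling. All 8 marker sums kept their direction without any 1 library and under the library-size scaling. Tests at 3 libraries per genotype cannot show small changes of genes near 1 CPM.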
